A study of Mus musculus with 13 samples.

Results

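The expression of 8 genes of insulin and insulin-like growth factor (IGF) signalling was followed through differentiation of female mouse embryonic stem cells (mESCs), with and without knockdown of Smarcc1, which encodes a core component of the BAF chromatin remodeller. They were the adaptors Irs1 and Irs2, the receptors Insr and Igf1r, and the secreted binding proteins Igfbp2, Igfbp3, Igfbp4 and Igfbp5, which are 8 of the 25965 genes measured. The 8 symbols were listed by name, and the list was selected on Irs1, whose values in these libraries were higher on later days and among the lowest relative to control with knockdown. Irs1 ranked 7 among the 639 genes called lower with knockdown and 13 among the 4679 called rising with day. The levels across days and the differences between knockdown and control are therefore descriptions for these 8 genes and carry no test.

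Insulin and the IGFs bind the receptor tyrosine kinases encoded by Insr and Igf1r. The activated receptors phosphorylate the insulin receptor substrates (IRS proteins), which recruit PI3-kinase and so turn on AKT and the TOR branch, while FOXO transcription factors are shut out of the nucleus. The IGF binding proteins hold IGFs outside the cell and set how much ligand reaches the receptor. In the early embryo IGF signalling supports survival and growth of pluripotent and differentiating cells.

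RNA-seq was performed on 13 libraries of FVB/CAST F1 female mESC lines. The single Day0 library came from undifferentiated cells in 2i medium, and the other 12 came from cells weaned from 2i into the serum-containing medium DME HiHi and harvested on days 4, 5, 6 and 7. A library was made on each of these days for each of 3 hairpins, the nonsilencing control (Nons) and the Smarcc1 hairpins Smarcc1.6 and Smarcc1.7, all introduced with a virus on day 2 and selected with puromycin from day 3, so the control cells carried a virus and a resistance gene too. With 1 library per group and day, the 4 days served as the replicates of a group, and no source says whether the libraries of different days came from separate cultures. Both hairpins of a day were compared with the same Nons library, so their same-day comparisons were not independent of each other. The 2i medium used for these cells contains the N2 and B27 supplements, which supply insulin, and the serum of DME HiHi supplies IGFs, so the ligand around the cells was not the same at Day0 and on later days.

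The hairpins are shown because they are the only agents that differ between the groups. Each guide is written 5′ to 3′ with its seed (bases 2 to 8) in capitals.
Smarcc1.6: tGTAACTGcttcttcatcctgc
Smarcc1.7: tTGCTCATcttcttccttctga
Both guides are 22 bases long and were complementary over all of them to 5 of the 9 annotated Smarcc1 transcripts (GENCODE M21, genome build GRCm38). The site of Smarcc1.6 lies at chr9:110177472-110177493 in exon 13 and that of Smarcc1.7 at chr9:110173911-110173932 in exon 11, both on the plus strand and within the coding sequence. Neither guide had a match of 21 bases in any of the 26 annotated transcripts of the 8 signalling genes. Shorter seed matches were not searched.

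Expression is given as log2 CPM, the log2 of a gene's reads scaled to a common library size. Depth ran from 13993440 to 63548092 mapped reads, at which 3 reads correspond to -2.22 and -4.40. Smarcc1 was lower than same-day Nons in 8 of 8 comparisons, at 43.9% of the Nons level with Smarcc1.6 and 52.5% with Smarcc1.7 (means over 4 days). The log2 difference averaged over both hairpins was -1.41, -1.28, -1.05 and -0.50 on days 4, 5, 6 and 7, so it was smallest on day 7. In Nons, Smarcc1 itself went from 548.7 CPM on day 4 to 236.6 CPM on day 7. A technical split cut across the groups. Genes took 85.3% to 86.5% of mapped reads at Day0 and in the 3 day 6 libraries, and 91.6% to 92.6% on days 4, 5 and 7 (9 libraries). Knockdown and Nons were compared within a day and so within a set, whereas comparisons across days crossed the sets. Mean differences without day 6 are given for most of the genes, and slopes on day without day 6 for some. The summed level of 6 pluripotency markers was 4280 CPM at Day0 and 1080 to 2520 CPM in the other libraries. Pou5f1, which is on that list, was at 1211 CPM at Day0 and at 747.2 to 1531 CPM in the others. The 8 mesoderm and mesenchyme markers together went from 15.7 CPM at Day0 to between 1180 and 1310 CPM on day 7. In bulk RNA, fewer cells of a type and less RNA per cell cannot be told apart.

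Irs1 and Irs2 encode the main IRS adaptors. Irs1 was close to absent at Day0 and became a well-expressed gene by day 7 in all 3 groups, at a lower level with either hairpin than in Nons on each day. At Day0 it had 1 read (log2 CPM -4.48, or 0.0449 CPM with an exact Clopper-Pearson 95% interval of 0.00114 to 0.25, which covers counting error only). In Nons its log2 CPM was -0.85, 2.20, 4.31 and 5.59 on days 4, 5, 6 and 7. The Smarcc1.6 libraries of these days were at -1.40, -0.67, 2.04 and 4.56, those of Smarcc1.7 at -2.27, -1.22, 2.52 and 5.14. Nons was the highest of the 3 libraries on every day, and both hairpins lay below it on each of the 4 days.

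Same-day differences of Irs1 from Nons were -0.55, -2.88, -2.27 and -1.02 with Smarcc1.6 on days 4, 5, 6 and 7, and -1.42, -3.43, -1.78 and -0.45 with Smarcc1.7. The means were -1.68 ± 1.08 (SD, n = 4) and -1.77 ± 1.24 (SD, n = 4), or 31.2% and 29.3% of the Nons level. The gap was widest on day 5, when Nons had a 7.35-fold higher level than Smarcc1.6 and a 10.8-fold higher level than Smarcc1.7, and narrowest on day 7 for Smarcc1.7 (1.37-fold). Few reads lay behind the early values. On day 5 Irs1 had 214 reads in Nons, 19 with Smarcc1.6 and 6 with Smarcc1.7, which gives 4.61 CPM (95% interval 4.01 to 5.27), 0.627 CPM (0.377 to 0.979) and 0.429 CPM (0.157 to 0.933). On day 4 the intervals of Nons (0.381 to 0.777 CPM) and Smarcc1.6 (0.242 to 0.562 CPM) overlapped. On day 7 the 3 libraries had 1426, 1387 and 1787 reads, and their intervals were apart (45.6 to 50.6, 22.4 to 24.9 and 33.6 to 36.9 CPM). Without day 6 the mean difference was -1.62 in place of -1.73. In a limma voom fit of the recovered reads, which gives low counts less weight, it was -1.24.

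From day 4 to day 7 Irs1 increased 86.8-fold in Nons, 62.6-fold with Smarcc1.6 and 170-fold with Smarcc1.7. The largest single step came between days 4 and 5 in Nons (3.06 on the log2 scale) and between days 5 and 6 with either hairpin (2.71 and 3.75). Relative to the 1 read at Day0, the day 7 level was 1070-fold in Nons, with a counting interval of 192 to 42300. Of the 6 hairpin values on days 5 to 7, 4 fell between the Nons value of the day before and that of the same day, and 2 were below both. The number between was 5 for Irs2 and Igf1r, 4 for Igfbp4 and Igfbp5, 2 for Insr and Igfbp3 and 1 for Igfbp2. It was not counted for genes outside the 8.

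Irs1 lies on chromosome 1 (82233101 to 82291416, minus strand), and the annotated gene Gm9747 lies inside it on the opposite strand (82233112 to 82235933). Since no strand setting for read counting is given in the sources used here, reads of the 2 genes there cannot be told apart. Gm9747 had 7, 60, 277 and 558 reads in Nons on days 4 to 7 and was lower than Nons in 8 of 8 comparisons, with a mean of 21.9% of the Nons level.

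Irs2 was expressed from the start. Its log2 CPM was 2.56 at Day0 and 3.62, 4.95, 6.74 and 7.12 in Nons on days 4 to 7. Smarcc1.6 gave 4.28, 4.28, 5.92 and 6.60, and Smarcc1.7 gave 3.95, 4.57, 5.95 and 7.08. Both hairpins were above Nons on day 4 and below it on days 5, 6 and 7. The mean differences were -0.34 ± 0.68 and -0.22 ± 0.48 (SD, n = 4), smaller than their SDs. Over both hairpins the mean was -0.28, and it was -0.54 without day 4 (or without Nons on day 4) and -0.10 without day 6. From day 4 to day 7 Irs2 increased 11.4-fold in Nons, 5.01-fold with Smarcc1.6 and 8.76-fold with Smarcc1.7.

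**Figure D1:**
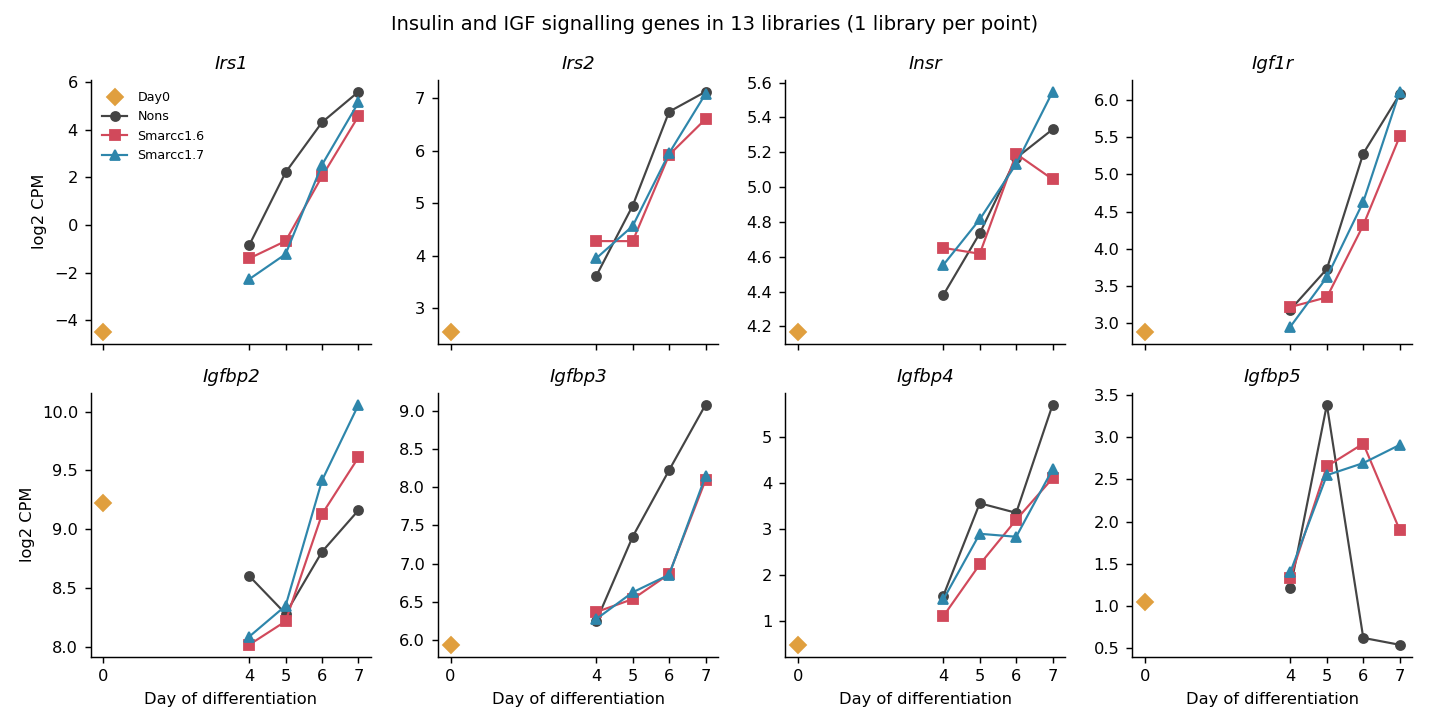
Log2 CPM (vertical axes, a separate range for each gene) of the 8 genes at Day0 and on days 4 to 7 (horizontal axes), 1 library per point, with lines joining the libraries of Nons, Smarcc1.6 and Smarcc1.7. Irs1 spans from -4.48 at Day0 to 5.59 on day 7 in Nons with both hairpins below Nons on each day, whereas Igfbp5 is at 0.62 in Nons on day 6 and at 2.93 and 2.70 with the hairpins.

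Stretches of the promoters of 3 genes are shown because Irs1 and Irs2, the adaptor pair, hold the same motif, and Igfbp4 a TATA box. The sequences are from RefSeq (GRCm38.p6), read 5′ to 3′ on the gene's strand, with the motif in capitals.
Irs1, minus strand, chr1:82291537-82291566: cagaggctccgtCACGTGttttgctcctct
Irs2, minus strand, chr8:11008956-11008985: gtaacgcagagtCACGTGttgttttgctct
Igfbp4, plus strand, chr11:99041204-99041233: ccagggggccggTATAAAgtcccgggagcc
The E-box CACGTG begins 115 bases before the RefSeq start of Irs1 and 44 bases before that of Irs2, and TATAAA begins 28 bases before that of Igfbp4. The gene positions used elsewhere here put the starts at 82291416 (Irs1) and 11008458 (Irs2), further from the E-box. The distances for these genes therefore depend on the annotation. Windows of 250 bases before to 50 after a start were searched on both strands, and 7 of the 8 genes had 8 windows between them. CACGTG was in 3 of these windows (Irs1, Irs2 and Igfbp2) and in 7.15% of all 32851 windows. TATAAA was in 1 (Igfbp4) and in 13.6% of all, and the GC-box GGGCGG was in 4 (Irs1, Irs2, Igf1r and Igfbp2) and in 35.7% of all. The motifs were chosen after the sequences were seen, and a match is a description of the letters.

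Insr and Igf1r encode the receptors. Insr had a narrow range over the time course. Its log2 CPM was 4.17 at Day0, 4.38, 4.73, 5.17 and 5.33 in Nons, 4.65, 4.62, 5.19 and 5.05 with Smarcc1.6, and 4.55, 4.82, 5.13 and 5.55 with Smarcc1.7. Both hairpins were above Nons on day 4 (by 0.27 and 0.17) and on either side of it on days 5, 6 and 7, and 5 of 8 same-day differences were above 0 (range -0.29 to 0.27). The antisense gene Gm16180 inside Insr had 0 reads in all 13 libraries.

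Igf1r was at 2.89 at Day0 and at 3.18, 3.73, 5.28 and 6.07 in Nons. Smarcc1.6 gave 3.22, 3.35, 4.32 and 5.51, and Smarcc1.7 gave 2.96, 3.62, 4.63 and 6.11. On day 6 both hairpins were below Nons, by 0.96 and 0.65, whereas on day 7 Smarcc1.7 was level with Nons (difference 0.03). The mean differences were -0.47 ± 0.41 and -0.24 ± 0.29 (SD, n = 4), and -0.20 over both hairpins without day 6, in place of -0.35.

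Levels of different genes were compared per kilobase of exon. Insr exceeded Igf1r 2.97-fold at Day0 and 2.80-fold in Nons on day 4, and the order was the opposite on day 7, when Igf1r exceeded Insr 1.37-fold in Nons, 1.13-fold with Smarcc1.6 and 1.21-fold with Smarcc1.7. The log2 difference Insr minus Igf1r was 1.48, 1.29, 0.18 and -0.45 in Nons on days 4 to 7, against 1.72, 1.56, 1.16 and -0.17 with Smarcc1.6 and 1.88, 1.48, 0.79 and -0.27 with Smarcc1.7. It was higher with either hairpin than in Nons on each day. Irs2 exceeded Irs1 in all 13 libraries, 32.1-fold in Nons on day 4 and 4.20-fold on day 7. With the hairpins that excess was 74.4-fold and 108-fold on day 4, and 5.95-fold and 5.57-fold on day 7.

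**Figure D2:**
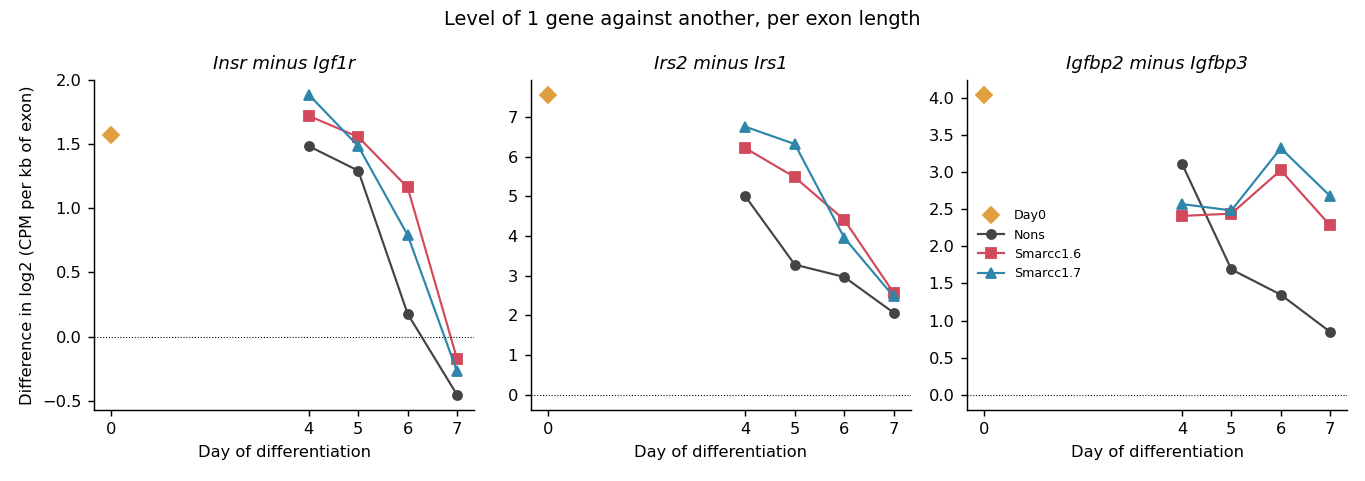
Difference in log2 CPM per kilobase of exon (vertical axes) between the members of 3 pairs at Day0 and on days 4 to 7 (horizontal axes), 1 library per point. Insr minus Igf1r passes below 0 on day 7 in all 3 groups (-0.45, -0.17 and -0.27), and Igfbp2 minus Igfbp3 is 0.85 in Nons on day 7 and 2.28 and 2.68 with the hairpins.

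Igfbp2 was the most abundant of the 8 genes per kilobase, and Igfbp3 came next. Igfbp2 encodes a binding protein that prefers IGF2, and Igfbp3 encodes the main carrier of IGFs in serum. Igfbp2 stood at 9.22 log2 CPM at Day0. Its later levels were 8.60, 8.28, 8.81 and 9.16 in Nons, 8.02, 8.22, 9.13 and 9.61 with Smarcc1.6, and 8.09, 8.35, 9.41 and 10.06 with Smarcc1.7. All 12 libraries but 3 were thus below the Day0 level, and the exceptions were Smarcc1.6 on day 7 and Smarcc1.7 on days 6 and 7. Both hairpins were below Nons on day 4, by 0.59 and 0.52, close to it on day 5, and above it on day 7, by 0.45 and 0.90.

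Igfbp3 stood at 5.94 log2 CPM at Day0 and at 6.25, 7.35, 8.22 and 9.07 in Nons. The hairpin libraries were at 6.37, 6.54, 6.87 and 8.09 (Smarcc1.6) and at 6.28, 6.63, 6.86 and 8.14 (Smarcc1.7). The 3 libraries of day 4 lay within 0.12 of each other, and both hairpins were below Nons on days 5, 6 and 7. The differences on those days were -0.82, -1.36 and -0.98 with Smarcc1.6 and -0.73, -1.36 and -0.93 with Smarcc1.7, and the 2 hairpins were the most alike for this gene (mean difference between them -0.01 ± 0.08, SD, n = 4). Of the 6 hairpin values on days 5 to 7, 4 were below both the same-day Nons value and that of the day before. The mean difference over all days was -0.75, and -0.55 without day 6.

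Per kilobase, Igfbp2 made up 94.1% of the 4 binding-protein transcripts at Day0 and Igfbp3 5.72%. In Nons the share of Igfbp2 was 89.2%, 74.8%, 71.3% and 62.7% on days 4 to 7, and that of Igfbp3 was 10.3%, 23.2%, 28.0% and 34.9%. With the hairpins Igfbp2 stayed between 82.2% and 90.3% on all 4 days, and Igfbp3 between 9.04% and 16.9%. On day 4 both hairpins had a lower share of Igfbp2 than Nons (83.7% and 85.0%) and a higher share of Igfbp3 (15.8% and 14.3%), and on days 5, 6 and 7 the order was the opposite, with no overlap on any day.

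Igfbp4 encodes a binding protein that is cleaved by the protease PAPP-A. It had 0.48 log2 CPM at Day0 and 1.55, 3.56, 3.35 and 5.70 in Nons. The hairpin libraries were at 1.10, 2.23, 3.20 and 4.10 (Smarcc1.6) and at 1.46, 2.89, 2.83 and 4.30 (Smarcc1.7). Nons was the highest library on every day. The mean differences were -0.88 ± 0.69 and -0.67 ± 0.55 (SD, n = 4), and the largest were on day 7 (-1.60 and -1.40). The day 6 level in Nons was below that of day 5, and without day 6 the mean difference was -0.92 in place of -0.78.

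Igfbp5 encodes a binding protein known for its tie to extracellular matrix, and its gene is the neighbour of Igfbp2 on chromosome 1, with 5457 bases between their ends, where they are transcribed towards each other. Igfbp5 was at 1.05 log2 CPM at Day0. Nons gave 1.21, 3.39, 0.62 and 0.54 over days 4 to 7. Smarcc1.6 gave 1.33, 2.66, 2.93 and 1.90, and Smarcc1.7 gave 1.40, 2.55, 2.70 and 2.91. The Nons course had a single high day, day 5, and both hairpins were below it on that day, while on days 6 and 7 both were above Nons. The same-day differences were 2.31 and 2.08 on day 6, and 1.36 and 2.38 on day 7. In reads, Igfbp5 had 54 in Nons on day 6 against 283 and 206, and 43 on day 7 against 219 and 382. The direction on day 7, which was outside the set of libraries with fewer reads in genes, was the same as on day 6. The mean difference over 4 days was 0.86, and it was 1.41 without day 5 (or without Nons on day 5), 0.41 without day 6 and 0.52 without day 7.

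**Figure D3:**
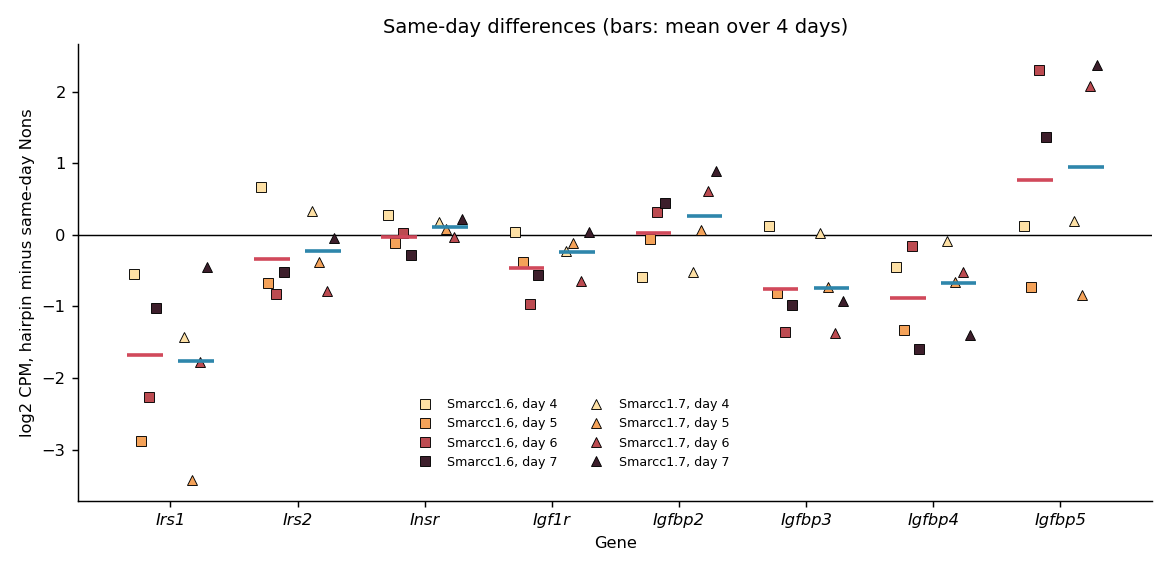
Difference in log2 CPM between each hairpin library and Nons of the same day (vertical axis) for the 8 genes (horizontal axis), with squares for Smarcc1.6, triangles for Smarcc1.7, darker fill for later days and bars for the mean over 4 days. All 8 points of Irs1 and of Igfbp4 are below 0, and the points of Igfbp5 run from -0.84 on day 5 to 2.38 on day 7.

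Across all genes, limma with Benjamini-Hochberg adjustment called 4.77% of the 13406 tested genes lower and 6.88% higher with knockdown at an adjusted p under 0.05. All 8 signalling genes were among the tested genes, and 3 of them were called lower (Irs1, Igfbp3 and Igfbp4) and 0 higher. Irs1 was called in 18 of 23 alternative fits, Igfbp3 in 16 of 24 and Igfbp4 in 11 of 24. None of the 3 was called without day 5, without day 6, without day as a block or with either hairpin alone, and Igfbp3 and Igfbp4 were not called without day 7. Leaving out the Nons library of day 5 or day 6 lost Igfbp3, and leaving out Nons on day 5 or 7, Smarcc1.6 on day 5 or 7 or Smarcc1.7 on day 6 or 7 lost Igfbp4. With day, 34.9% of tested genes were called rising and 25.6% falling, and 7 of the 8 were called rising, Igfbp5 being the exception. After each library was centred on its autosomal median, 3574 genes were called rising and 4731 falling, where 4679 and 3435 had been, and 7 of the 8 genes were again called rising. Slopes of the 7 genes ran from 0.28 (Insr) to 2.27 (Irs1) log2 units per day, and that of Igfbp5 was 0.06. Without day 6 the slopes of Insr, Irs1 and Igfbp5 were 0.265, 2.244 and 0.056. Since Irs1 was chosen on these contrasts, these counts describe the genes and are not evidence about them.

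The contrast between the 2 hairpins was not used in choosing the genes, and it was tested. No gene of all those tested differed (0%, while 530 genes had an unadjusted p under 0.05). Adjusted p-values of the 8 genes in limma were between 0.989 and 0.999. The interval of the difference Smarcc1.6 minus Smarcc1.7 was narrowest for Insr (-0.37 to 0.10, 95%) and was -0.83 to 1.00 for Irs1 and -1.24 to 0.87 for Igfbp5. The intervals of these 2 genes thus reached a difference of 1 log2 unit.

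The difference in slope between knockdown and Nons was also tested with day as a number, and no gene was called (0%, with 745 genes at an unadjusted p under 0.05). The 3 widest differences in slope among the 8 genes were 0.81 ± 0.43 (SE) per day for Igfbp5, 0.41 ± 0.13 for Igfbp2 and -0.37 ± 0.14 for Igfbp3 (limma adjusted p 0.968, 0.77 and 0.827). With day as a factor, an alternative added after seeing the data that takes up what the 3 libraries of a day share, 503 genes were called. Igfbp2 was 1 of them (adjusted p = 0.0149 in limma), while Igfbp3 (0.0532) and Igfbp5 (0.115) were not. For Irs1 the difference in slope was 0.19, with an interval of -0.58 to 0.96.

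Ranked by mean level per kilobase in Nons, the order was Igfbp2 (7.83 ± 0.37, SD, n = 4), Igfbp3 (6.08 ± 1.21), Irs2 (2.95 ± 1.63), Igfbp4 (1.40 ± 1.703), Insr (1.12 ± 0.43), Igf1r (0.50 ± 1.34), Irs1 (-0.38 ± 2.81) and Igfbp5 (-1.15 ± 1.34), on the log2 scale. The SDs are over the 4 days and hold the time course. The gaps from Igfbp2 to Igfbp3 and from Igfbp3 to Irs2 were larger than the SDs of the genes on either side, and the gaps between all later neighbours were not. With either hairpin Irs1 was last in this order.

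Over the 12 libraries of days 4 to 7, Irs1 correlated with Irs2 (Pearson r = 0.959), Igf1r (0.96), Igfbp3 (0.931), Igfbp4 (0.893), Insr (0.865) and Igfbp2 (0.815), while r with Igfbp5 was -0.051. These libraries share days, and 34.9% of all tested genes were called rising with day, so such values are descriptions of a common time course. The genes most like Irs1 were Gm20388, Gm4876 and Eml3 (each 0.987), and Ube2j1 and Rgs17 (each 0.985). Rgs17 was near absent at Day0, as Irs1 was (log2 CPM -2.89), whereas Gm20388 was at 7.26 there, above all its later values. The 2 genes most like each other member were Elf2 and Rab32 for Irs2 (each 0.991), Zfp217 (0.983) and Mkln1 (0.978) for Insr, Lamb3 and Otud7b (each 0.993) for Igf1r, Cacna1h (0.973) and Rcn3 (0.969) for Igfbp2, Mum1l1 (0.99) and Ghr (0.989) for Igfbp3, Rtp4 (0.983) and Cdc42ep5 (0.969) for Igfbp4, and Elp2 (0.867) and Gstm6 (0.86) for Igfbp5. Ghr, the growth hormone receptor, was at -3.48 log2 CPM at Day0 and between 1.44 and 5.83 later.

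The remaining genes of the pathway were taken from a list of 64, of which 54 had a mean log2 CPM of at least 0 and were tested. In limma, 4 of the 54 rose and 4 fell with knockdown (7.41% each way, against 6.88% and 4.77% of all tested genes), with a median difference of 0.06 against -0.01 over all tested genes. The fit counted the libraries of both hairpins as separate, although they shared 1 Nons library per day. Its SEs and p-values can therefore be too small where both hairpins varied together from day to day. With either hairpin alone, 0 of the 54 were called. Socs3, which encodes a feedback inhibitor of cytokine and insulin receptor signalling, rose by 0.55 ± 0.10 (SE, adjusted p = 0.00802). A pair of lipid phosphatases that remove the product of PI3-kinase rose, Inpp5d by 0.89 ± 0.22 (adjusted p = 0.0254) and Inpp5k by 0.34 ± 0.09 (adjusted p = 0.0291). The difference of Inpp5d, averaged over both hairpins, was -0.12, 0.59, 1.35 and 1.73 on days 4, 5, 6 and 7. Igfals, which encodes the partner of IGF and Igfbp3 in serum complexes, rose by 0.99 ± 0.23 (adjusted p = 0.0208), on 11 to 98 reads per library.

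The 4 that fell were Pik3r1 and Pik3r2, Foxo1 and Igf2bp3. The first pair encodes regulatory subunits of PI3-kinase, and they fell by 0.42 ± 0.08 (SE, adjusted p = 0.00861) and 0.26 ± 0.07 (adjusted p = 0.0411). A further regulatory subunit gene, Pik3r3, went the other way and was not called (0.56 ± 0.17, limma adjusted p = 0.0581). It was higher in 7 of 8 same-day comparisons. Foxo1, a transcription factor held in check by AKT, fell by 0.39 ± 0.08 (adjusted p = 0.0148) and was lower in 8 of 8 same-day comparisons. Igf2bp3, which encodes an RNA-binding protein of IGF2 mRNA, fell by 0.39 ± 0.08 (adjusted p = 0.0154). None of the 9 tested genes of the TOR branch, the 7 of PDK1, AKT and AKT phosphatases, the 8 adaptors or the 2 GSK3 genes was called with knockdown. The adaptor gene Grb10 nonetheless differed from Nons by 0.79 and 1.30 on day 6 and by 2.30 and 2.65 on day 7. On days 4 and 5 its differences were -0.45 to -0.07. The 8 calls were lost (0 of 54) without day 6, and without day 5 there was 1.

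**Figure D4:**
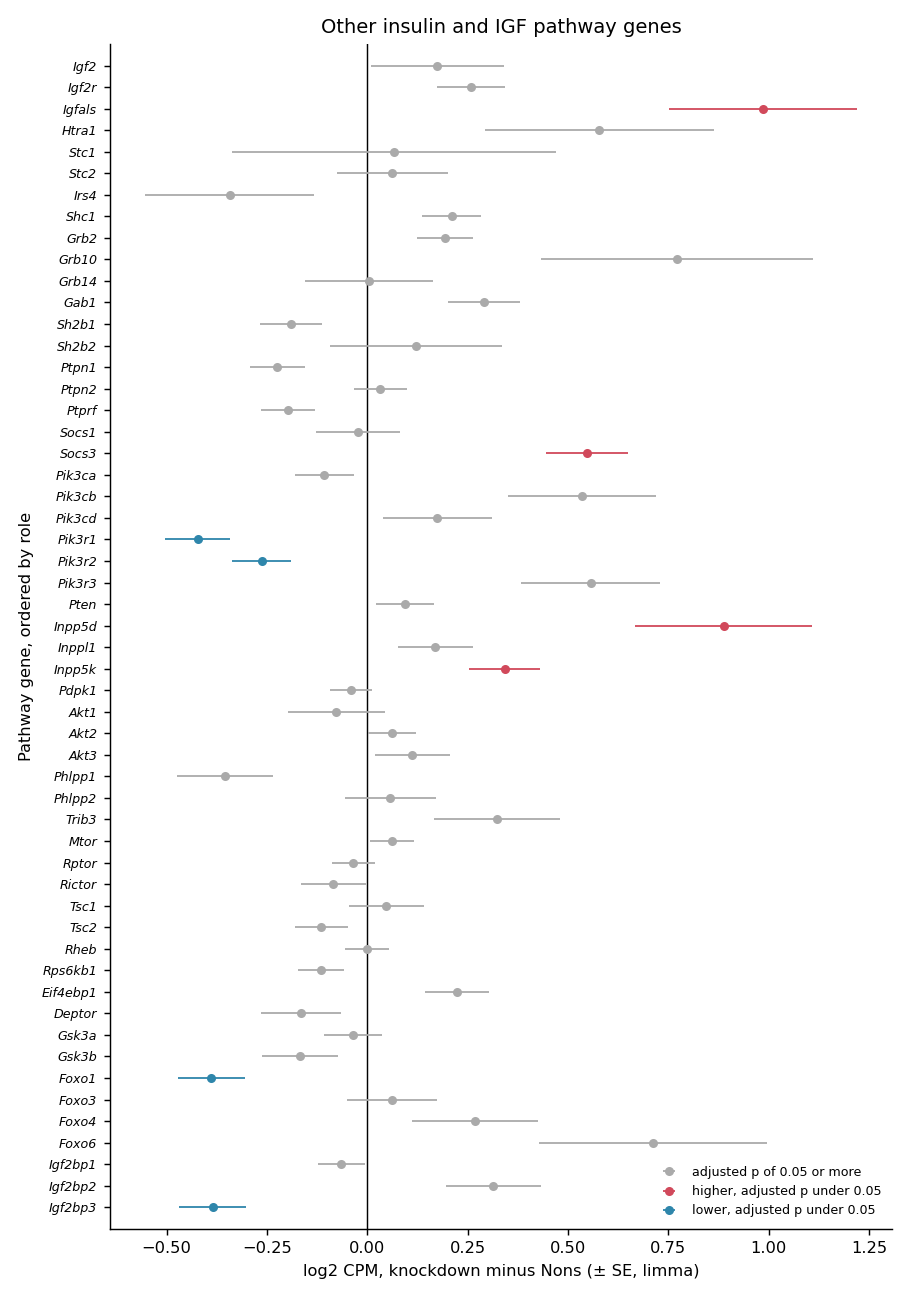
Log2 difference between knockdown and Nons from limma (horizontal axis, points with bars of ± SE) for the 54 tested pathway genes (vertical axis, ordered by role), coloured by whether the adjusted p was under 0.05. The 4 genes higher with knockdown run from 0.34 (Inpp5k) to 0.99 (Igfals), and the 4 lower ones from -0.42 (Pik3r1) to -0.26 (Pik3r2).

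With day, 19 of the 54 pathway genes rose and 19 fell (35.2% each, against 34.9% and 25.6% of all tested genes). After centring, 17 rose and 24 fell, and without day 7 the counts were 22 and 12. The largest rises per day were in Stc1 (1.53 ± 0.32, SE, limma adjusted p = 0.00186), Igf2 (0.95 ± 0.15, 0.000294), Stc2 (0.75 ± 0.19, 0.00523), Akt1 (0.72 ± 0.06, 4.36e-06) and Socs3 (0.65 ± 0.10, 0.000346). Stc1 and Stc2 encode stanniocalcins, which inhibit the PAPP-A proteases. The largest falls were in Inpp5d (-1.02 ± 0.13, 7.83e-05), Foxo6 (-0.90 ± 0.12, 9.94e-05), Htra1 (-0.57 ± 0.20, 0.0277), a secreted protease that cleaves binding proteins, Pik3cd (-0.52 ± 0.08, 0.000252) and Igf2r (-0.40 ± 0.07, 0.000406), the receptor that clears IGF2. Igf2, the ligand with the most reads, was at 0.69 log2 CPM at Day0 and at 2.30, 3.92, 4.00 and 6.28 in Nons, and its difference with knockdown was 0.17 ± 0.17 (SE, limma adjusted p = 0.534). The same-day differences of Igf2 were 1.11 and 0.87 on day 4 and -0.29 to 0.18 on days 5 to 7, and the mean was -0.10 without day 4.

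Markers of cell types moved with the same contrasts. Of all tested genes, 6.88% were called higher and 4.77% lower with knockdown, and 34.9% were called rising with day. Of 6 pluripotency markers, 4 were called higher with knockdown in limma, and the summed level of the list was 1080 to 1730 CPM in Nons, 1350 to 2520 CPM with Smarcc1.6 and 1080 to 2090 CPM with Smarcc1.7. Much of the sum was Pou5f1, at 797.6 to 1490 CPM in Nons. Its mean same-day log2 difference over both hairpins was 0.08 (range -0.19 to 0.34). Of the 6 tested mesoderm and mesenchyme markers (8 listed), 2 were lower, T and Twist1, and 1 was higher, and all 6 rose with day. The summed list on days 4 to 7 was 10.3, 43.5, 691 and 1180 CPM in Nons, 17.2, 28, 245 and 1310 CPM with Smarcc1.6, and 18.1, 21.7, 374 and 1240 CPM with Smarcc1.7, so that Nons was highest on days 5 and 6 and lowest on days 4 and 7. The higher marker was Col1a2 (2.82 on the log2 scale). T (brachyury) had a log2 CPM of 0.97, 2.62, 5.03 and 7.49 in Nons on days 4 to 7, 1.28, 1.27, 0.87 and 4.19 with Smarcc1.6, and 1.02, 1.48, 0.10 and 2.04 with Smarcc1.7. Among the others, 1 of 3 tested endoderm markers was lower, 2 of 3 neural markers were higher, and 0 of 5 trophoblast markers were called in limma. Summed endoderm markers stayed at 2.78 to 24.0 CPM and Ttr had 0 reads in 9 libraries. The summed neural list ran from 36.8 to 81.4 CPM in Nons, 49.8 to 148 CPM with Smarcc1.6 and 46.5 to 111 CPM with Smarcc1.7. Mesp1 or Prrx1 was at 0 reads in 6 libraries. The part of these cell types in the levels of the 8 signalling genes was not tested.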

How the data were processed

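Paired-end RNA-seq reads were mapped by the authors to mm10. TopHat2 2.0.12 and bcl2fastq stand in the submitters' processing notes, and the methods text gives tophat or hisat2. The strand setting and the annotation release are not given in the sources used here. The authors counted reads per gene in Seqmonk and deposited log2 values of CPM. These lay on steps of whole reads (100% of low values within 0.02 of a read), from which reads and depths were recovered. For 0 reads the files hold 0.9 reads, and no further pseudocount was added.

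Groups and days came from the sample titles, and the day pairs the libraries of the 3 groups. Genes whose log2 CPM averaged 0 or more over the 12 libraries (13406 genes) were fitted with limma 3.58.1 in R 4.3.3 (eBayes with trend, Benjamini-Hochberg adjustment, threshold 0.05), with day as a factor for knockdown against Nons and for the hairpins, group as a factor for the slope on day, and day as a number for the interaction. Day0 entered no test. Positions and exon lengths came from GENCODE M21 (GRCm38, the build named mm10), matched for 22618 of 25965 rows.

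On simulated data over 13406 genes, the knockdown fit recovered 88.5% of genes changed by 0.5 log2 units. It recovered 100% of those changed by 1 log2 unit. The simulated noise was independent between libraries, with no variation from day to day shared by both hairpins. These percentages are for the simulated data only, and recovery in the sequenced libraries was not tested. In the sequenced libraries Igfbp5 (0.86 ± 0.40, SE) was not called with knockdown, while Igfbp3 (-0.75 ± 0.16) was. Recovered reads were also fitted with limma voom. The 8 genes, the pathway list and the marker lists were chosen with earlier results of these data known. Named genes were the 8, Smarcc1, pathway genes called with knockdown, the 5 largest rises and falls per day among pathway genes, and the genes most correlated with each of the 8. The genes overlapping Irs1 and Insr, the cell type markers, Pik3r3, Grb10 and the pathway genes below the filter were named outside this rule, after their values were seen. The marker Map2 was not analysed. Python 3.11.15, numpy 2.4.6, pandas 2.3.3 and matplotlib 3.10.9 were used.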

Additional observations from a re-analysis of the deposited data

How the results depend on the processing

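The count of genes called with knockdown (1561) was 4 without the replicate block of day, 57 with Smarcc1.6 only and 0 with Nons and Smarcc1.7 (2363 genes had an unadjusted p under 0.05). Omitting 1 day or 1 library gave 287 to 2003, lowest without day 6. Under these changes the 8 calls among pathway genes were 0, 0 and 0, and 0 to 13, with 0 without day 6, 1 without day 5 and 13 without Nons on day 4. Each of those 8 genes kept its sign under all alternatives and was called in 6 (Pik3r2) to 20 (Socs3) of 23 or 24. For the hairpins, 2 genes were called with no filter on low values, and for the interaction 503 were called with the replicate block (day as a factor). The block changed no call of the 8 signalling genes for day or for the hairpins. Without it none of the 8 was called with knockdown. The mean difference of Insr, 0.04, was -0.02 to 0.088 when a day or library was omitted (-0.02 without day 4 or without Nons on day 4) and -0.027 with Smarcc1.6 only. That of Igfbp2, 0.15, was -0.029 to 0.38 (-0.029 without day 7 or without Nons on day 7). The slope of Igfbp5, 0.06, was -0.024 after centring and -0.541 (without day 4) to 0.382 (without day 7) with 1 day omitted. In all, 116 of 136 alternative counts were within 1.5 times the main count, and 184 of 192 alternative values of single genes kept their sign and moved by less than the spread. The 20 counts that moved were nearly all knockdown counts, of all genes or of pathway genes. No count for the change per day was among them. The main counts of the hairpin and interaction fits were 0, and nearly all their alternatives were 0 too, so the pooled share says little about the knockdown calls. The causes were not tested. With 1 library per group and day, a difference on a single day has no replicate, and at these depths 3 reads are -2.22 to -4.40 log2 CPM.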

Other observations

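Of the 64 further pathway genes, 10 were below the filter and entered no comparison. Ins1 had 0 reads in all 13 libraries, which allows up to -2.22 log2 CPM in the shallowest of them, and Ins2 had at most 12 reads. Igf1 had at most 16 reads, in Smarcc1.6 on day 4, and 0 in 8 libraries, so of the ligands Igf2 alone was measured at depth. Pappa, which encodes the protease PAPP-A that cleaves Igfbp4, had 5, 9, 20 and 38 reads in Nons on days 4, 5, 6 and 7. It had 0, 1, 0 and 64 reads with Smarcc1.6 and 1, 0, 1 and 34 with Smarcc1.7. Igfbp6 had 8, 4, 24 and 61 reads in Nons over these days, 13, 8, 41 and 147 with Smarcc1.6 and 9, 3, 16 and 95 with Smarcc1.7. Irs3 had between 3 and 106 reads. These values were chosen for naming after they were seen.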
